A study of Homo sapiens
Mus musculus with 24 samples.

Results

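The 10 murine genes described here mark the supporting cells of a tumor: Acta2 and Tagln, which mark contractile cells (myofibroblasts and smooth muscle), Fap, Pdgfra, Postn and Thy1, which mark fibroblasts, and Pdgfrb, Rgs5, Notch3 and Cspg4, which mark pericytes. They were listed by symbol, and all 10 were found among the 16667 genes of the murine count table. Each library came from a snap-frozen piece of an MDA-MB-231 tumor, a human triple-negative breast cancer line, grown in a female B6/Rag1KO mouse. Since these hosts carry no functional Rag1 in any group, they lack mature T and B cells. Because the tumor cells are human, counts assigned to murine genes were read as those of the host tissue around them. How reads that match both genomes were assigned is not given in the sources used here.

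All 24 mice, the lean ones included, were 14 weeks old at injection per the labels. The 20 mice of the treatment arms were fed a high-fat diet. Once they bore tumors above 200 mm3, these mice were randomized for 4 weeks to a saline vehicle (CTRL, n = 4), to weekly chemotherapy of cyclophosphamide (100 mg/kg) and doxorubicin (2 mg/kg) (Chemo, n = 5), to moringa seed concentrate at 0.6% of the diet (MC, n = 5), or to both (MC + Chemo, n = 6). A further 4 lean, tumor-bearing mice served as the diet control with no treatment named (Lean). Every tumor came from its own mouse and gave 1 library. Libraries carry the name of the group followed by the number of the mouse. For MC + Chemo 5 the title gives the combination, which was followed, and another label field gives MC.

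A tumor stroma holds several related mesenchymal cells. Fibroblasts make collagen and matrix and respond to platelet-derived growth factor (PDGF) ligands through the receptor encoded by Pdgfra. When they are activated by transforming growth factor beta or by tension, they assemble contractile fibers rich in the product of Acta2 and are called myofibroblasts. Pericytes sit on the outer wall of small vessels, are recruited by PDGF-B that endothelial cells release onto the receptor encoded by Pdgfrb, and exchange Notch and angiopoietin signals with the endothelium beneath them. Acta2 and Tagln are also made by vascular smooth muscle and by some pericytes, so the 3 classes overlap.

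The members were well measured in every tumor. The murine counts ran from 3664056 to 9892470 per library, the human counts from 7796231 to 17621273, and the human share from 47.8 to 74.0%. The lowest raw count of any member in any library was 35, for Notch3 in CTRL 17, and the other 9 had at least 75 counts in each of the 24 libraries. Among further genes listed for these cells, 25 of 25 fibroblast, 16 of 17 pericyte and 14 of 15 contractile genes had a count in all 24 libraries, so transcripts of these genes were detected in nearly every case. Several libraries stood apart, which bears on the results. CTRL 17 and MC + Chemo 52 had the lowest summed normalized counts of 9 endothelial genes (Pecam1, Cdh5, Kdr, Flt1, Emcn, Vwf, Erg, Esam and Cldn5), at 691 and 1116, against 2539 or more in the other libraries. A further set of 4 libraries (MC 41 and MC + Chemo 5, 43 and 52) had high counts of skeletal muscle or adipocyte genes. The 11 muscle genes reached sums of 38069 (MC 41), 40398 (MC + Chemo 5) and 64619 (MC + Chemo 43), and the 9 adipocyte genes reached 111346 in MC 41 and 152706 in MC + Chemo 52. Values without some of these libraries are given beside the results of each pairwise comparison and of the interaction.

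Levels are normalized counts, which are read counts divided by a size factor per library. A gene was called changed where the edgeR quasi-likelihood test gave an adjusted p below 0.05, the mean normalized count was above 30 and the fold change was above 1.5. In this bulk RNA, fewer cells of a type and less RNA per cell cannot be told apart.

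None of the 10 members met these criteria for a difference between the 5 groups. The 4 pericyte members had their lowest group means in MC + Chemo, with ranges that overlapped those of the other groups. For each fibroblast gene, the highest and the lowest group mean differed by less than the larger of their SDs. In the test for any difference among the 5 groups, 0 of 10 members were called, against 0.379% of 15029 genes. At an unadjusted p below 0.05 the count was 0 of 10 by edgeR and 0 by DESeq2, against 13.7% of all genes by edgeR. The lowest adjusted p was 0.465, for Cspg4.

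**Figure D1:**
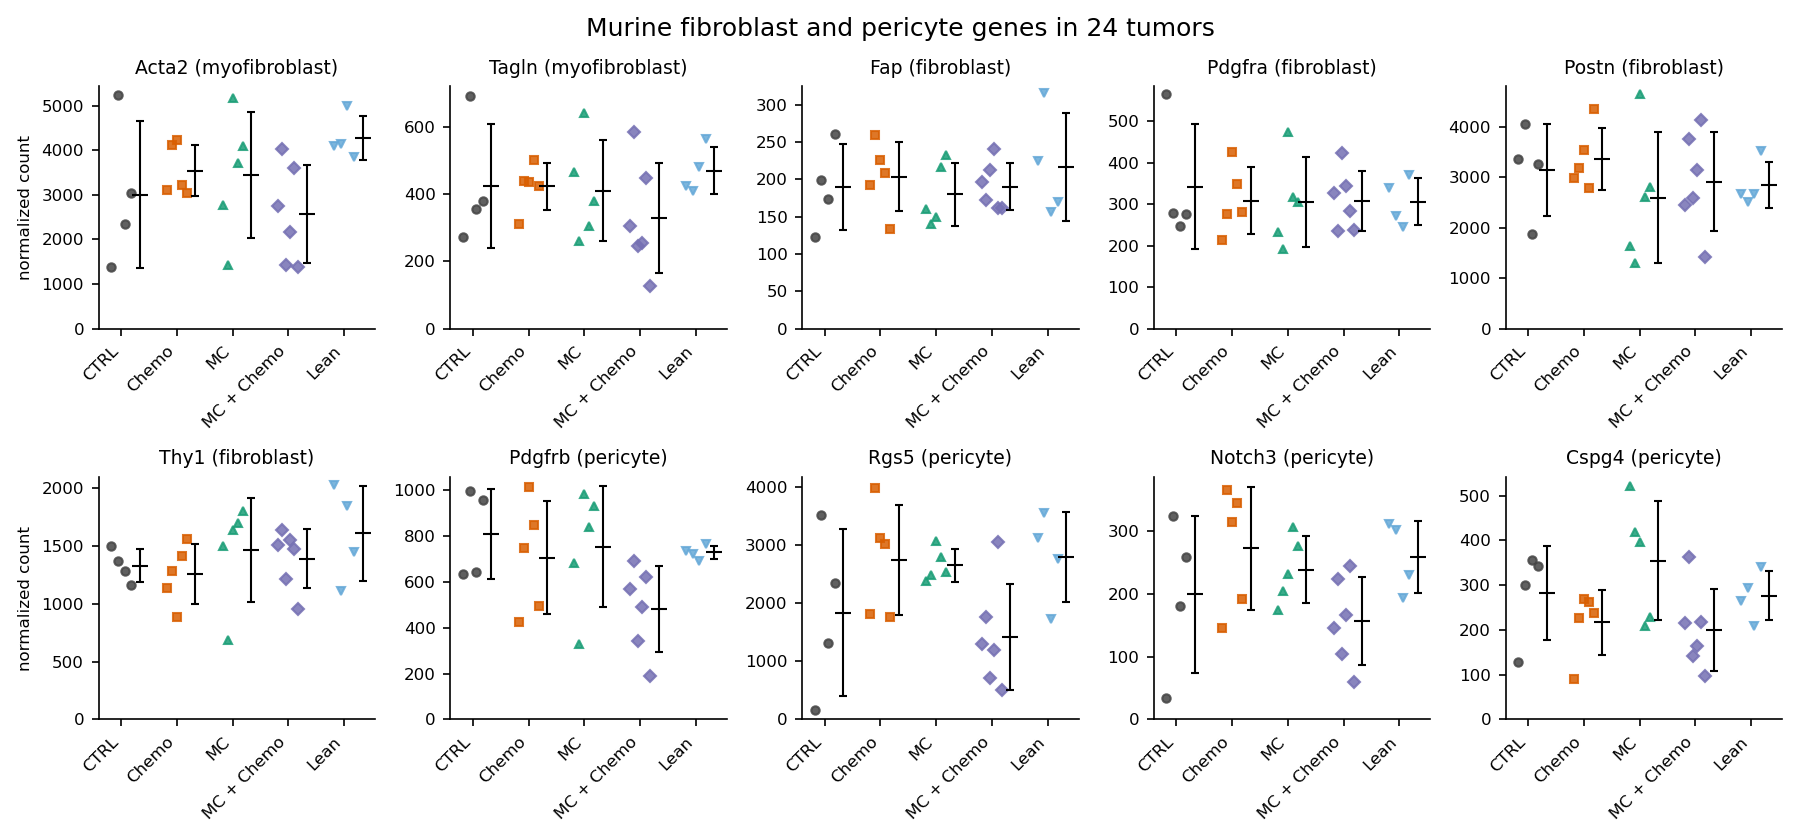
Normalized counts of the 10 murine genes in each of the 24 tumors by group, with the group mean and SD as a black bar beside the points; each vertical axis starts at 0. The highest and lowest group means of each fibroblast gene differ by less than the larger of their SDs. Rgs5 spans 157 to 3986 over the tumors, and MC + Chemo holds the lowest mean of each of the 4 pericyte genes.

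The contractile genes are described first. Acta2 encodes alpha smooth muscle actin, the defining protein of myofibroblasts. Its normalized counts in CTRL were 1375, 5246, 2342 and 3041, so CTRL alone held both the lowest and the highest value of the 24 libraries. In Chemo they were 3117, 4107, 4237, 3226 and 3036, and in MC 2780, 1422, 5162, 3722 and 4092. In MC + Chemo the lowest was 1383, the median 2463 and the highest 4025. The Lean tumors lay at 4092, 4141, 4993 and 3851, the tightest set. The means were 4269 ± 499 in Lean, 3545 ± 579 in Chemo, 3435 ± 1412 in MC, 3001 ± 1645 in CTRL and 2560 ± 1099 in MC + Chemo (mean ± SD). Lean exceeded its neighbour Chemo by more than the larger SD, and the other neighbours in this order did not differ beyond theirs. The ranges of the other groups all overlapped that of CTRL.

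Tagln encodes transgelin, an actin-binding protein of smooth muscle. Its lowest level was 128, in MC + Chemo 52, and its highest was 693, in CTRL 31, which was also highest for Acta2. Group means ran from 328 ± 163 in MC + Chemo to 469 ± 69.8 in Lean, and no neighbours in the order differed beyond their SD. The 2 contractile genes followed each other across the 24 tumors, with a Pearson r of 0.82 (permutation p = 1e-05, the smallest that 100000 resamples can give, and adjusted p = 9.29e-05 over 65 relations computed) and a Spearman rho of 0.75 (permutation p = 7e-05, adjusted p = 0.000569). The r was 0.79 without CTRL 17 and MC + Chemo 52, the libraries farthest from the median of Acta2, and 0.80 within groups.

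The groups accounted for 1.59 to 12.6% of the variance of the log2 level of the fibroblast genes, and for 19.5 to 30.8% of that of the other 6 genes. Pdgfra encodes the PDGF receptor alpha of resting and activated fibroblasts. It measured 567, 278, 249 and 277 in CTRL, 214, 276, 427, 348 and 281 in Chemo, and 233, 192, 475, 318 and 306 in MC. In MC + Chemo it ran from 236 through a median of 305 to 424, and in Lean it was 338, 272, 246 and 370. A single library, CTRL 17, stood above all the rest. The means of Chemo, MC, MC + Chemo and Lean lay between 305 and 309, and its share of variance between groups was the 1.59% given above, against a median of 19.2% over 11086 murine genes with a mean above 30.

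Fap encodes a membrane protease of activated fibroblasts. Its group means ran from 180 ± 42.2 in MC to 217 ± 72.3 in Lean, over libraries from 123 to 316. Postn encodes periostin, a matrix protein that such cells secrete. Its group means ran from 2601 ± 1308 in MC to 3371 ± 615 in Chemo, over libraries from 1293 in MC 41 to 4645 in MC 42, so that a single group held both ends. Thy1 encodes a surface glycoprotein of fibroblasts that thymocytes and neurons also carry. Its group means ran from 1256 ± 261 in Chemo to 1609 ± 411 in Lean. MC 41 was the lowest of all libraries for Pdgfra, Postn and Thy1 alike, at 192, 1293 and 684. For each of the 4 fibroblast genes the highest and the lowest group mean differed by less than the larger of their SDs.

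The pericyte genes included the widest ranges over the tumors. Pdgfrb, which encodes the PDGF receptor beta by which pericytes are recruited, measured 635, 997, 642 and 958 in CTRL. In Chemo it was 424, 745, 1015, 850 and 495, and in MC it was 683, 327, 985, 838 and 931. MC + Chemo ran from 188 through a median of 529 to 689. Lean was 732, 722, 693 and 765. Except for MC + Chemo 25, at 689, the tumors of MC + Chemo all lay below the lowest value of CTRL, and the ranges overlapped. The means were 808 ± 197 in CTRL, 753 ± 264 in MC, 728 ± 29.9 in Lean, 706 ± 246 in Chemo and 483 ± 187 in MC + Chemo.

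Rgs5 encodes a regulator of G-protein signaling that is abundant in pericytes. It had the widest range of the 10 genes, 25.3-fold from the lowest to the highest tumor. The CTRL tumors were at 157, 3520, 1321 and 2350, the Chemo tumors at 1819, 3986, 3122, 3024 and 1758, and the MC tumors at 2375, 2483, 3074, 2795 and 2542. MC + Chemo ran from 512 through a median of 1243 to 3046, and Lean measured 3129, 3549, 1735 and 2755. In MC the 5 tumors kept within 2375 to 3074, while CTRL covered most of the whole range. In MC + Chemo the tumor at 3046, MC + Chemo 50, lay well above the next, MC + Chemo 25 at 1757. The SD of the log2 level was 1.06, above that of 96.3% of the 11086 genes, whose median was 0.37.

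Notch3 encodes the Notch receptor of vascular smooth muscle and pericytes. Its levels were 33.6, 324, 181 and 258 in CTRL, 146, 365, 315, 345 and 192 in Chemo, and 175, 205, 232, 306 and 277 in MC. In MC + Chemo they ran from 59.9 through a median of 156 to 244, and in Lean they were 312, 302, 194 and 230. CTRL 17 and MC + Chemo 52, the libraries low in endothelial genes, were the lowest for Notch3 as for Rgs5. The means were 273 ± 97.4 in Chemo, 259 ± 57.0 in Lean, 239 ± 53.3 in MC, 199 ± 125 in CTRL and 158 ± 70.1 in MC + Chemo.

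Cspg4 encodes the proteoglycan NG2 on the pericyte surface. It was highest in MC, at 521, 419, 396, 209 and 228, and measured 129, 300, 356 and 342 in CTRL and 90.0, 226, 269, 262 and 238 in Chemo. In MC + Chemo it ran from 97.7 through a median of 190 to 363, and in Lean it was 265, 293, 208 and 340. The 3 highest values of all 24 tumors were in MC, but the other 2 MC tumors lay among those of MC + Chemo. The means were 354 ± 133 in MC, 282 ± 105 in CTRL, 277 ± 55.2 in Lean, 217 ± 73.1 in Chemo and 200 ± 92.1 in MC + Chemo.

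Taking the group means of each gene in order gives 40 pairs of neighbours over the 10 genes. All 40 had overlapping ranges, and only in the pair of Lean and Chemo for Acta2 did the means differ by more than the larger SD. MC + Chemo had the lowest mean for 6 genes, which were the 2 contractile and the 4 pericyte genes, and MC had it for 3 of the 4 fibroblast genes. Lean had the highest mean for 5.

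The comparison of Chemo with CTRL asked whether doxorubicin and cyclophosphamide alone altered these host genes. The 10 log2 fold changes lay between −0.37 for Cspg4 and 0.58 for Rgs5, with 5 above 0 and 5 below. None was called, where 0.0% of 15011 genes were, and none reached an unadjusted p below 0.05, where 4.53% did. Their adjusted p by edgeR was 1.000 throughout when rounded. The 95% interval of Rgs5 reached from −0.58 to 1.74, so a change of more than 2-fold in this gene was within the interval. The log2 fold change of Rgs5 was 0.19 without CTRL 17 and 1.10 without CTRL 31. The median of the pericyte class went from 0.13 to −0.10 without CTRL 17 and MC + Chemo 52. No gene had CTRL and Chemo values that did not overlap, against 1.39% of all genes.

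For MC against CTRL, the log2 fold changes lay between −0.26 for Postn and 0.54 for Rgs5. The pericyte class had a median of 0.31 with 3 of 4 genes higher, and the fibroblast class a median of −0.11 with 1 of 4 higher. None of the 10 was called (0.0% of all genes were), none had an unadjusted p below 0.05 (11.8% did), and none had groups that did not overlap (2.09% did). The median of the pericyte class was −0.01 without CTRL 17 and MC + Chemo 52, and the value of Rgs5 was 0.14 without CTRL 17 alone and 1.06 without CTRL 31.

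Lean against CTRL compared hosts without diet-induced obesity with obese hosts given the vehicle. The contractile genes had log2 fold changes of 0.51 for Acta2 and 0.15 for Tagln, the fibroblast genes lay between −0.15 and 0.28, and the pericyte genes between −0.15 and 0.60. None was called by edgeR (0.0% of 15029 genes were), none had an unadjusted p below 0.05 (3.11% did), and none had groups that did not overlap (2.93% did). Without CTRL 17 the value of Rgs5 went from 0.60 to 0.22, that of Notch3 from 0.38 to 0.03 and that of Acta2 from 0.51 to 0.27, and without CTRL 31 these were 1.14, 0.73 and 0.94. The pericyte median went from 0.18 to −0.11 without CTRL 17 and MC + Chemo 52. Whether the Lean mice also received saline is not given in the sources used here.

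**Figure D2:**
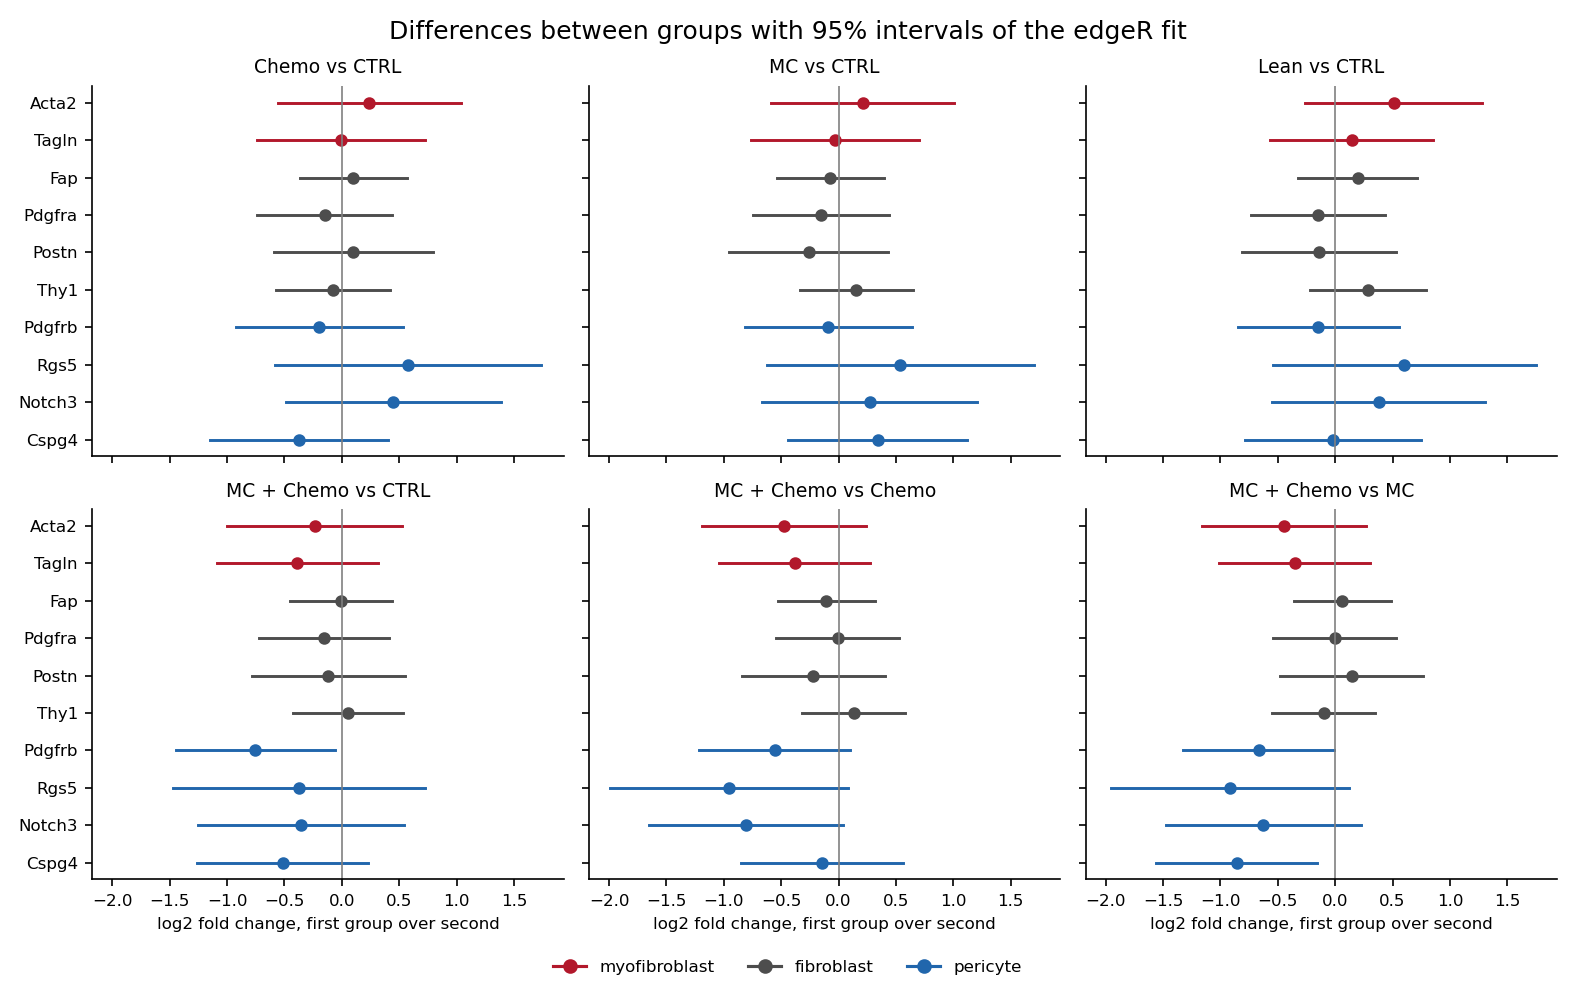
Log2 fold changes of the 10 genes in 6 comparisons (points) with the 95% intervals of the edgeR fit (lines), colored by class. In the upper row the intervals of all genes include 0. In the lower row the points of the 4 pericyte genes lie left of 0 in each comparison of MC + Chemo. Only the intervals of Pdgfrb against CTRL and of Pdgfrb and Cspg4 against MC leave out 0 there.

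The comparisons of MC + Chemo showed the lowest values, and they were in the contractile and pericyte classes. Against CTRL, the 4 pericyte genes had log2 fold changes from −0.75 to −0.35 with a median of −0.45, and the 2 contractile genes had −0.24 and −0.39. The fibroblast genes lay between −0.16 and 0.05. Pdgfrb was lowest, at −0.75 (SE 0.33, adjusted p = 0.370 by edgeR). It was the single member of 10 with an unadjusted p below 0.05, where 12.4% of all genes had one, so this count is near the background. None of the 10 was called (0.0% were) and none had groups that did not overlap (2.54% did). CTRL 17, with a Rgs5 count of 157, and CTRL 31, with 3520, moved the value of this gene most. Without CTRL 17 the log2 fold change of Rgs5 was −0.78, and without CTRL 31 it was 0.15.

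Against Chemo, the median of the pericyte class was −0.68 and that of the fibroblast class −0.06. Rgs5 had a log2 fold change of −0.95 (SE 0.50, adjusted p = 0.492 by edgeR) and Notch3 of −0.80 (SE 0.41, adjusted p = 0.474 by edgeR). Pdgfrb had −0.56 and Cspg4 −0.14. None of the 10 was called (0.0% of all genes), none had an unadjusted p below 0.05 by edgeR (11.0% did) and 1 had by DESeq2, and none had groups that did not overlap (1.33% did).

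Against MC, the median of the pericyte class was −0.76 and that of the fibroblast class 0.03. Cspg4 had a log2 fold change of −0.86 (SE 0.34, adjusted p = 0.479 by edgeR) and Pdgfrb of −0.67 (SE 0.32, adjusted p = 0.502 by edgeR). These were 2 of 10 genes with an unadjusted p below 0.05, where 9.87% of all genes had one. None was called (0.0%), and none had groups that did not overlap (0.886% did). The adjusted p of the 10 genes ran from 0.479 to 0.996. The 3 comparisons share the MC + Chemo tumors, so their values are not independent of each other.

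The interaction asked whether the difference made by chemotherapy was itself different with MC in the diet. Rgs5 had the largest value, at −1.49 on the log2 scale (SE 0.75, adjusted p = 0.695 by edgeR), and Notch3 had −1.07 (SE 0.61, adjusted p = 0.708 by edgeR). The means of both genes were higher in Chemo than in CTRL and lower in MC + Chemo than in MC. The fibroblast genes had interaction values between −0.04 and 0.14. None of the 10 was called (0.0% of all genes), and none had an unadjusted p below 0.05 by edgeR (6.87% did), with 1 by DESeq2. Without CTRL 17 and MC + Chemo 52 the value of Rgs5 was −0.93, that of Notch3 −0.55 and the median of the pericyte class −0.37, where it was −0.78 with all libraries. Without the 4 libraries high in muscle or adipocyte genes the values were −1.02 for Rgs5 and −0.70 for Notch3, with a pericyte median of −0.53. Without CTRL 31 alone they were −2.01 and −1.41.

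Levels of skeletal muscle and adipocyte genes were also uneven over the groups, and their relation to the members was not computed. The summed muscle genes had a median of 149 in CTRL, 235 in MC and 1344 in MC + Chemo. For the summed adipocyte genes these medians were 5162, 8917 and 18084. Rgs5 was 2483 in MC 41, high in both, and 1291 in MC + Chemo 5 and 715 in MC + Chemo 43, high in muscle genes. It was 512 in MC + Chemo 52, with the highest adipocyte sum, and 157 in CTRL 17, with the lowest. Without the 4 libraries high in these genes (MC 41 and MC + Chemo 5, 43 and 52), the median of the pericyte class in MC + Chemo was −0.09 against CTRL, −0.33 against Chemo and −0.47 against MC, and 0 of 10 genes had an unadjusted p below 0.05 in any comparison. The log2 fold change of Pdgfrb against CTRL was −0.46 (SE 0.28, adjusted p = 0.890 by edgeR), and that of Rgs5 became 0.09. This left 3 tumors of MC + Chemo, and the part that muscle and fat tissue in the piece had in the result was not tested. Without CTRL 17 and MC + Chemo 52, the pericyte medians were −0.62, −0.53 and −0.60 in the same order, and Rgs5 against Chemo had −0.79 (SE 0.33, adjusted p = 0.537 by edgeR). In this set 1, 2 and 2 of the 10 genes had an unadjusted p below 0.05 in these comparisons, and 0 in the other 4. The shares of all genes at this p in the 2 reduced sets are not given here, so these counts have no background. With all libraries the shares were 12.4, 11.0 and 9.87% in the same order.

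**Figure D3:**
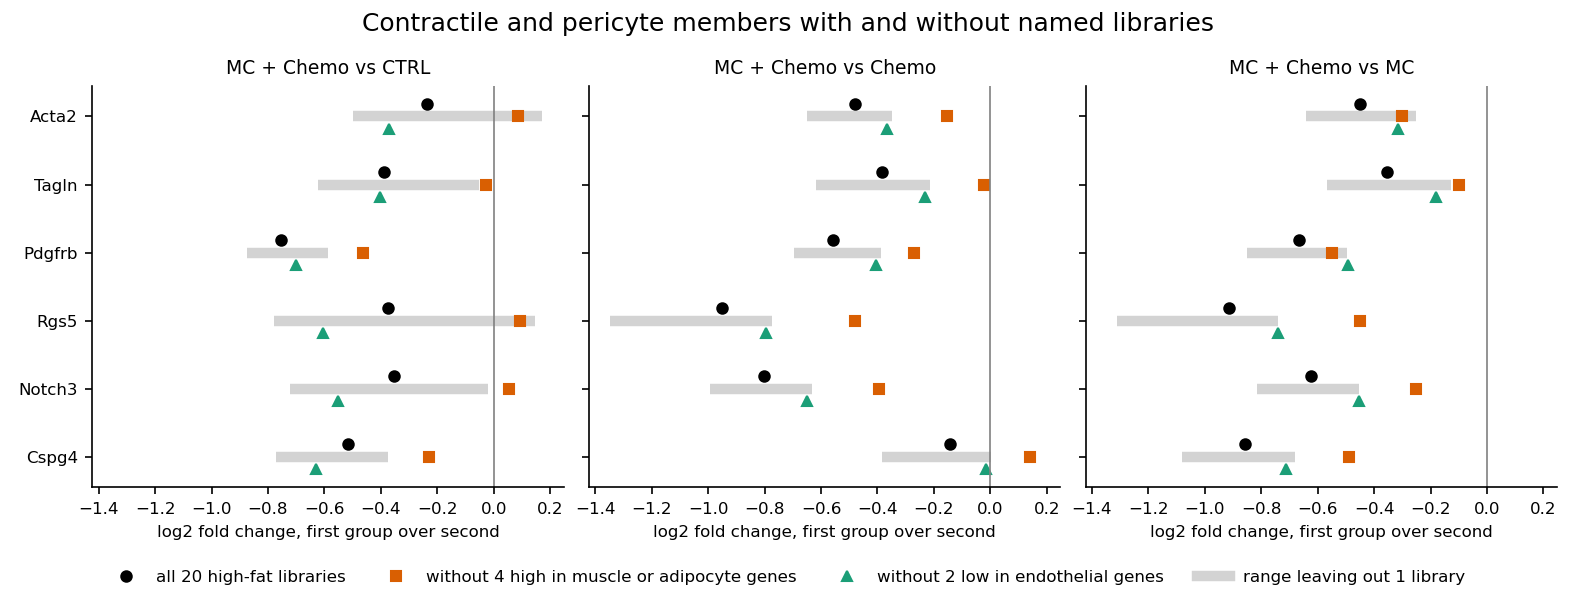
Log2 fold changes of the 2 contractile and 4 pericyte genes in the comparisons of MC + Chemo with all 20 high-fat libraries (circles), without the 4 libraries high in muscle or adipocyte genes (squares) and without the 2 low in endothelial genes (triangles); the gray bar is the range when any single library is left out. The squares lie to the right of the circles for each gene, and Rgs5 against CTRL goes from −0.37 to 0.09.

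The contractile and pericyte genes varied together. Over the 24 tumors, the 15 pairs among Acta2, Tagln, Pdgfrb, Rgs5, Notch3 and Cspg4 had a median Pearson r of 0.65 on log2(normalized count + 1), from 0.39 to 0.96, and 14 of them were above 0.5. The median was 0.66 within groups, and 0.56 without the 2 libraries farthest from the median of 1 gene of each pair. Among the 4 fibroblast genes the median of the 6 pairs was 0.17, with 0 above 0.5. The 24 pairs with a gene of each set had a median of 0.23, with 4 above 0.5. Over all 61444155 pairs of the 11086 genes the median r was −0.00, and 2.23% of the pairs were above 0.65. The points of each r share their library and its depth.

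Rgs5 and Notch3 were the closest pair, with a Pearson r of 0.96 (permutation p = 1e-05, adjusted p = 9.29e-05) and a Spearman rho of 0.90 (permutation p = 1e-05, adjusted p = 0.000325). The r was 0.89 without CTRL 17 and MC + Chemo 52. Acta2 had an r of 0.77 with Pdgfrb, 0.77 with Notch3 and 0.76 with Rgs5, with adjusted permutation p from 9.29e-05 to 0.000144, and the lowest r of the set, 0.39, was that of Acta2 with Cspg4. Pdgfra, by contrast, had an r of −0.31 with Rgs5 that went to 0.04 without CTRL 17 and MC 42, so it rested on those tumors. Fap, although a fibroblast gene, had a higher r with Notch3 (0.54) than with the other fibroblast genes, and this was 0.36 without Lean 21 and CTRL 17. Postn likewise had a higher r with Tagln (0.61), Acta2 (0.57) and Pdgfrb (0.57) than with any fibroblast gene. Without the 2 libraries farthest from the median of 1 gene of the pair these were 0.49, 0.60 and 0.19. Within the fibroblast set, Pdgfra and Postn had the highest r, at 0.49 (permutation p = 0.0154, adjusted p = 0.0312), with a rho of 0.42 (permutation p = 0.0452, adjusted p = 0.0917).

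**Figure D4:**
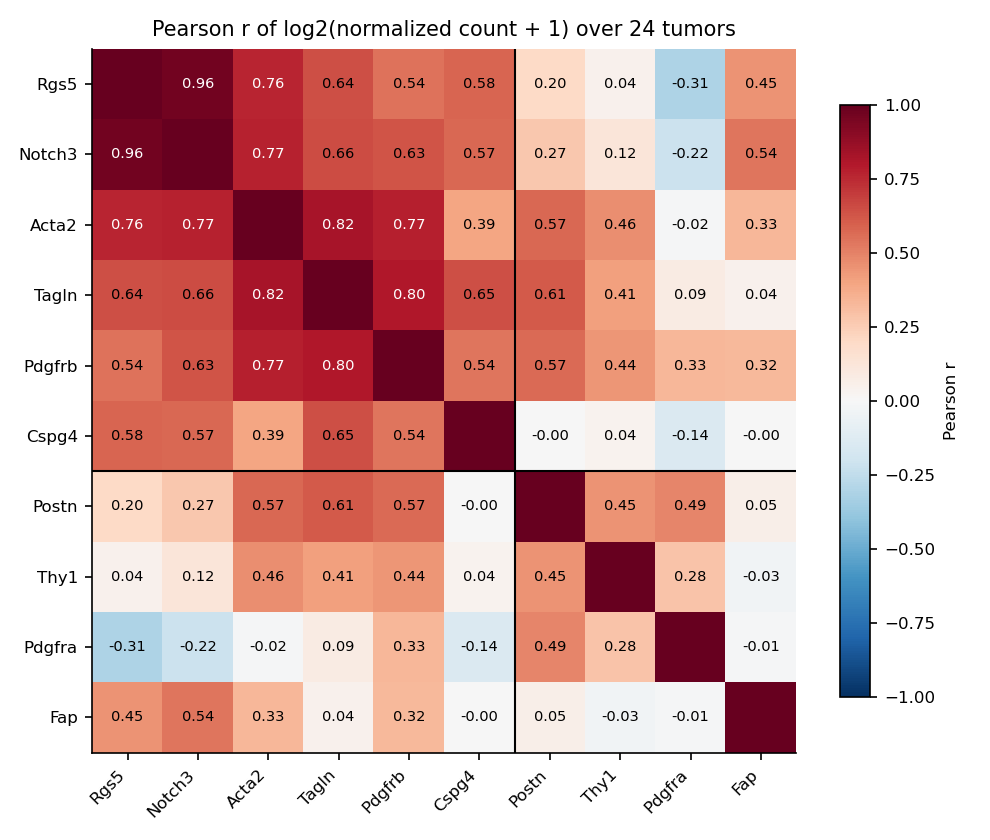
Pearson r between each pair of the 10 genes over 24 tumors, on log2(normalized count + 1); black lines part the contractile and pericyte genes (upper left) from the fibroblast genes. The upper left block runs from 0.39 to 0.96, and the lower right block from −0.03 to 0.49.

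The pericyte genes also varied with the genes of the endothelial cells that pericytes cover. The summed endothelial counts had a Pearson r of 0.91 with Rgs5 (permutation p = 1e-05, adjusted p = 9.29e-05) and a rho of 0.60 (permutation p = 0.0024, adjusted p = 0.0104). With Notch3 the r was 0.90 (permutation p = 1e-05, adjusted p = 9.29e-05) and the rho 0.58 (permutation p = 0.00394, adjusted p = 0.0130). Without CTRL 17 and MC + Chemo 52 these r were 0.71 and 0.65. The r was 0.74 for Acta2, 0.68 for Cspg4, 0.67 for Tagln and 0.54 for Pdgfrb. For the fibroblast genes it was 0.36 for Fap, 0.20 for Thy1, 0.16 for Postn and −0.32 for Pdgfra.

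CTRL 17 shows the contrast within a single tumor. It had the lowest level of Acta2, Fap, Rgs5 and Notch3 among the 24 and the highest of Pdgfra. Of the 17 further pericyte genes it was lowest for 9, of the 9 endothelial genes for 7, and of the 15 further contractile genes for 9, but of the 25 further fibroblast genes for 0. MC + Chemo 52 was the lowest or next to lowest for 7 of the 10 members, and it was among the 2 lowest for 7 of the 9 endothelial and 10 of the 25 fibroblast genes. The 7 members included all 4 pericyte genes, but of the 17 further pericyte genes it was among the 2 lowest for 3. The part of endothelial content in these values was not tested.

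**Figure D5:**
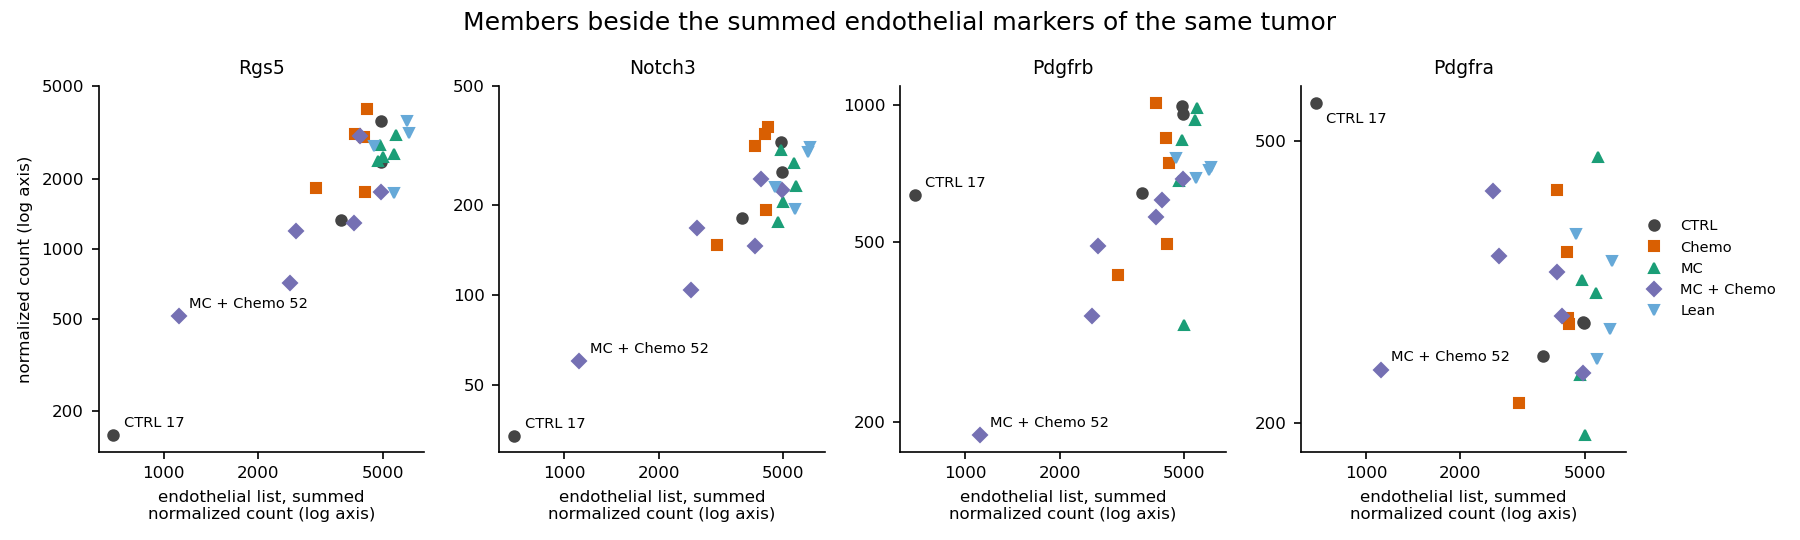
Normalized counts of Rgs5, Notch3, Pdgfrb and Pdgfra (vertical, log axis) against the summed normalized counts of 9 endothelial genes (horizontal, log axis) in 24 tumors, with symbols for the groups. Rgs5 and Notch3 go down with the endothelial sum to CTRL 17 at 691, where Pdgfra has its highest value, 567.

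The murine genes with the most similar pattern were found by their Pearson r with the mean z-score of each class over the 24 tumors, among genes with a mean above 30. For the contractile class they were Endod1 (r = 0.89), Csrp1 (r = 0.88), which encodes a LIM-domain protein of smooth muscle, and Gnb4 (r = 0.87). For the fibroblast class they were P4ha3 (r = 0.90), which encodes a subunit of collagen prolyl hydroxylase, Mxra8 (r = 0.90) and Dkk3 (r = 0.87). For the pericyte class they were Itga1 (r = 0.94), which encodes the alpha subunit of a collagen-binding integrin, Nes (r = 0.93), which encodes the intermediate filament nestin, and 2900026A02Rik (r = 0.92). By Spearman rho, Csrp1, Mxra8 and Itga1 stayed among the closest 3 of their class and the others did not.

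Of the further contractile genes, 0 of 15 were called by edgeR in any comparison. Of all murine genes, 0.0% were called in each pairwise comparison and the interaction, and 0.379% in the 5-group test. A count of 0 called is therefore not particular to this list or to the murine lists below. At an unadjusted p below 0.05, 1 was higher and 1 lower in MC + Chemo against CTRL, 2 were higher against Chemo and 1 was higher in MC against CTRL. Over all genes the shares at this p were 12.4%, 11.0% and 11.8%, so these counts are near the background. Des, which encodes desmin, an intermediate filament of skeletal and smooth muscle and of pericytes, had the lowest p of the list in these comparisons. Its levels were 13.4, 177, 75.6 and 84.2 in CTRL and 1313, 249, 1925, 157, 195 and 104 in MC + Chemo, with overlapping ranges. The log2 fold change was 2.91 (SE 0.85, adjusted p = 0.225 by edgeR). DESeq2 gave an adjusted p of 0.0329 here and of 0.0102 in the 5-group test, and both met the 3 criteria. Of all 16667 murine genes, DESeq2 called 118 and 456 in these tests. The 3 libraries with the highest levels, at 1925, 1313 and 881 (the last of them MC 41), were those high in skeletal muscle genes, and without the 4 libraries the value was 1.15 (adjusted p = 0.800 by edgeR). Smtn, the gene of smoothelin, had −0.69 in Chemo against CTRL (SE 0.34, adjusted p = 1.000 by edgeR) and −0.14 without CTRL 44. Myl9, which encodes a regulatory myosin light chain, had the lowest p of the list for the interaction, at −0.91, and Actg2, a smooth muscle actin, for Lean against CTRL, at 0.55. Without CTRL 17 these values were −0.60 and 0.19, and without CTRL 31 they were −1.49 and 1.03.

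Among the 25 further fibroblast genes, 0 were called and 0 had an unadjusted p below 0.05 in any of the 8 tests. Over all genes the shares at this p ran from 3.11% in Lean against CTRL to 13.7% in the 5-group test. Their median log2 fold change lay between −0.14 in MC against CTRL and 0.20 in MC + Chemo against MC, and that of the interaction was 0.26. The lowest p values belonged to S100a4, a calcium-binding protein gene, in Chemo against CTRL (0.58, SE 0.30, adjusted p = 1.000 by edgeR), to Fn1, the fibronectin gene, in Lean against CTRL (0.47, SE 0.23, adjusted p = 1 by edgeR), and to Dpt, the dermatopontin gene, in MC + Chemo against CTRL (0.90, SE 0.50, adjusted p = 0.466 by edgeR). Col3a1 in MC against CTRL had −0.45, Pdpn, the podoplanin gene, in MC + Chemo against MC 0.41, and Cthrc1 an interaction of 1.10. A single library moved several of these values. Without CTRL 17, Col3a1 went to −0.01 and Cthrc1 to 0.49. S100a4 went to 0.33 without Chemo 19 and Dpt to 0.57 without CTRL 44, and without the 4 libraries high in muscle or adipocyte genes Dpt had 0.35 and Pdpn 0.27. As for the 4 fibroblast members, no gene of this list passed the criteria.

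Of the 17 further pericyte genes, 0 were called by edgeR. Unlike the 4 pericyte members, their summed level was close in MC + Chemo (2878 ± 163) and CTRL (2899 ± 588). It was 3168 ± 530 in Chemo, 3426 ± 268 in MC and 3511 ± 209 in Lean. CTRL 17 had the lowest sum of CTRL, at 2183. A sum weighs abundant genes most, and these 17 genes included Steap4, with a mean of 189 in MC + Chemo and 67.4 in CTRL. In MC against CTRL 14 of the 16 tested had a log2 fold change above 0 with a median of 0.31, and in MC + Chemo against MC 2 of 16 did, with a median of −0.37. Over all genes tested the medians were 0.00 and −0.04. The endothelial genes lay on the same side. In MC against CTRL 9 of 9 were above 0, and in MC + Chemo against MC 0 of 9 were. Their medians were 0.57 and −0.65, and their part in the result was not tested. CTRL 17 was lowest of the 24 tumors for 7 of these 9 genes and for 9 of the 17 pericyte genes. Its endothelial sum was 691, against 3678 to 4954 in the other CTRL tumors and 4821 to 5498 in MC. The list medians against CTRL without CTRL 17 are not given here. Kcnj8, which encodes the pore subunit of an ATP-sensitive potassium channel of pericytes, was the gene of lowest p in 5 of the 8 tests. It measured 7.68, 57.9, 33.3 and 76.0 in CTRL, 52.8, 67.4, 43.4, 65.1 and 35.2 in Chemo, 130, 99.8, 92.9, 99.0 and 93.2 in MC, and 78.9, 97.4, 123 and 96.3 in Lean. In MC + Chemo it measured 59.5, 90.8, 49.0, 55.3, 55.0 and 44.9. All MC tumors lay above all those of the other high-fat groups, and all Lean tumors above those of CTRL and Chemo. Of all genes, 2.09% had groups that did not overlap in MC against CTRL, 0.886% in MC + Chemo against MC and 2.93% in Lean against CTRL. The shares for the other pairs are not given here, and Kcnj8 was named because of its low p in these same data. Against CTRL, MC had a log2 fold change of 1.22 (SE 0.38, adjusted p = 0.251 by edgeR) and Lean one of 1.16 (SE 0.37, adjusted p = 1 by edgeR). In MC + Chemo against MC it was −0.83 (SE 0.34, adjusted p = 0.484 by edgeR), which was −0.67 without the 4 libraries high in muscle or adipocyte genes (adjusted p = 0.980 by edgeR). Without CTRL 17 and MC + Chemo 52 the value for MC was 0.86 (adjusted p = 0.464 by edgeR). DESeq2 called Kcnj8 in the test of all 5 groups (adjusted p = 0.0174), where edgeR gave an adjusted p of 0.141. In that test DESeq2 called 456 of 16667 murine genes and edgeR 57 of 15029.

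Ndufa4l2, a hypoxia-responsive gene of pericytes, had −0.74 in Chemo against CTRL (SE 0.34, adjusted p = 1.000 by edgeR), which was −0.19 without CTRL 17. Steap4, which encodes a metalloreductase that adipocytes also make, had 1.46 in MC + Chemo against CTRL (SE 0.63, adjusted p = 0.358 by edgeR). Its highest level was 535, in MC + Chemo 52, the library with the highest adipocyte sum, and the value was 0.82 without this library and 0.34 without the 4.

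The ligands that act on these cells were also measured. Of the 13 murine ligand genes of the PDGF, transforming growth factor beta, Notch and angiopoietin families, 0 were called. Tgfb1, the gene of transforming growth factor beta 1, had an unadjusted p below 0.05 in comparisons of MC + Chemo, with a log2 fold change of −0.59 against CTRL (SE 0.26, adjusted p = 0.372 by edgeR) and of −0.56 against MC (SE 0.25, adjusted p = 0.492 by edgeR). From the highest to the lowest, its group means were 163 (Lean), 134 (CTRL), 130 (MC), 116 (Chemo) and 88.9 (MC + Chemo). Tgfb2 had 0.58 in Chemo against CTRL (SE 0.29, adjusted p = 1.000 by edgeR), and Tgfb3 0.42 in MC and 0.43 in Lean against CTRL. Without CTRL 44 the value of Tgfb1 against CTRL was −0.32 and that of Tgfb2 0.38. Without CTRL 17 the values of Tgfb3 were 0.22 in MC and 0.25 in Lean, and without CTRL 31 they were 0.68 and 0.70, with 0.92 for Tgfb2.

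None of the 8 receptor genes was called. Tgfbr1, the signaling receptor of transforming growth factor beta, had −0.64 in MC + Chemo against CTRL (SE 0.26, adjusted p = 0.324 by edgeR), and Tek, the angiopoietin receptor gene of endothelial cells, had −0.65 against MC (SE 0.28, adjusted p = 0.492 by edgeR). Of the target genes, 0 of 9 were called, and 8 passed the filter on low counts in the fit to the 20 high-fat libraries. Hes1, a Notch target, had 0.57 in MC + Chemo against CTRL (SE 0.25, adjusted p = 0.368 by edgeR), with 1755 in MC + Chemo 25 and 430 in CTRL 17 as the ends of its range, and its value was 0.35 without CTRL 17. Ccn1, a target of the YAP coactivator, had −0.74 in Lean against CTRL (SE 0.38, adjusted p = 1 by edgeR), which was −0.09 without CTRL 17.

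The human genes of the same names were read from the human counts of the same tumors, since the MDA-MB-231 cells can make them too. The human share of the summed counts of both genes was 0.893% for Postn, 1.63% for Rgs5, 7.22% for Thy1, 8.16% for Acta2 and 11.1% for Pdgfrb. It was 20.5% for Cspg4, 25.6% for Pdgfra, 27.4% for Fap, 34.8% for Notch3 and 67.8% for Tagln, so most transgelin counts were assigned to the human gene. How reads matching the murine and the human genome alike were handled is not given in the sources used here.

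By edgeR, 0 of the 10 human namesakes and 7 human ligand genes were called in any comparison, against 1.6% of 16434 human genes in MC + Chemo against CTRL and 0.0% in the others. PDGFRB measured 46.5, 146, 136 and 121 in CTRL and ran from 11.5 through a median of 56.8 to 69.4 in MC + Chemo, so that only CTRL 17 of the CTRL tumors lay within the range of MC + Chemo. Its log2 fold change was −1.16 (SE 0.41, adjusted p = 0.103 by edgeR), in the same direction as murine Pdgfrb. CSPG4 measured 90.2, 75.8, 139 and 80.7 in CTRL and ran from 11.5 to 81.6 in MC + Chemo, with a log2 fold change of −1.08 (SE 0.36, adjusted p = 0.0922 by edgeR). In Chemo CSPG4 measured 44.1, 53.7, 32.8, 69.4 and 40.0, all below the lowest CTRL tumor, with a log2 fold change of −1.02 (SE 0.38, adjusted p = 0.172 by edgeR). The share of all human genes whose groups did not overlap is not given here, so this separation has no background.

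PDGFC, a ligand of the PDGF receptor alpha, was the human ligand with the lowest p. It measured 1415, 598, 1248 and 452 in CTRL and 642, 339, 449, 384 and 506 in Chemo, with a log2 fold change of −1.01 (SE 0.25, adjusted p = 0.0845 by edgeR). DESeq2 called it in this comparison (adjusted p = 0.0183), as it did 461 of 18880 human genes. CTRL 17 and CTRL 44 lay above all Chemo tumors, whereas CTRL 31 and CTRL 70 lay among them. Without CTRL 31 or CTRL 70, edgeR called PDGFC as well.

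Murine and human levels of a gene varied together in these tables. Over the 24 tumors, Pdgfrb and PDGFRB had a Pearson r of 0.83 (permutation p = 1e-05, adjusted p = 9.29e-05) and a rho of 0.76 (permutation p = 3e-05, adjusted p = 0.000325), and the r was 0.74 without MC + Chemo 52 and MC 41. Pdgfra and PDGFRA had an r of 0.77 (permutation p = 1e-05, adjusted p = 9.29e-05) and a rho of 0.87 (permutation p = 1e-05, adjusted p = 0.000325), and the r was 0.78 without CTRL 17 and MC 42. Fap and FAP had an r of 0.02 and Tagln and TAGLN of 0.30. Across the 9 members with a mean above 30 in both tables the median r was 0.66. Over the 8501 gene pairs of the same symbol with such means it was 0.44, from −0.22 at the 5th to 0.86 at the 95th percentile, so a positive r was common to the tables. The part of shared sequence in these values was not tested.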

How the data were processed

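Tumor RNA was sequenced as QuantSeq 3′ libraries with 50 bp forward reads, which the authors aligned and counted with BlueBee software for murine (GRCm38 in the submitters' processing notes) and human genes. The deposited raw counts entered every test. The deposited normalized signal, which the authors made by dividing counts by 1 DESeq2 size factor per library (DESeq2 1.22.2 in the submitters' processing notes), gave the levels. One count is a 3′ tag, so levels are compared between groups and not between genes, and PCR duplicates are not told apart.

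Murine counts were fitted with edgeR 4.0.16 (TMM scaling, filterByExpr, quasi-likelihood F test) to the 20 high-fat libraries for 5 pairwise contrasts and the interaction, and to all 24 for Lean against CTRL and the 5-group test. Benjamini-Hochberg adjustment ran over all genes tested in R 4.3.3. A call needed an adjusted p below 0.05, a mean above 30 and a fold change above 1.5. Intervals used the t distribution with the degrees of freedom of the fit. Correlations used log2(normalized count + 1) with permutation tests (scipy 1.17.1). The scripts were tested on simulated data. The methods of the study used DESeq2, here run as DESeq2 1.42.0 as an alternative. Other alternatives were another scaling, no filter, other sets of libraries, the other label of MC + Chemo 5, and leaving out each library.

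The 10 members and all lists were chosen with earlier results of these data known. Beyond the members, the gene with the lowest p of each list in each comparison was named, and for each class the 3 genes with the most similar pattern. The submitted tables give 2991 murine rows no symbol. Promoter sequences were not analysed here.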

Additional observations from a re-analysis of the deposited data

Results flagged for a closer look

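Among the 50 sets of a member and a group, 4 held a library far from the others by Dixon's ratio of the gap to the range, and chance alone gives about 1 in 20. Pdgfra in CTRL 17 was the highest of its group, at a normalized count of 567 and a ratio of 0.864. Cspg4 in the same library was the lowest of CTRL, at 129 and a ratio of 0.832. Cspg4 in Chemo 19 was the lowest of Chemo, at 90.0 and a ratio of 0.838. Thy1 in MC 41 was the lowest of MC, at 684 and a ratio of 0.810.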

How the results depend on the processing

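In no fit was any of the 10 members called. The lowest adjusted p over the fits of a comparison was 0.732 for Chemo against CTRL (18 fits), 0.402 for MC against CTRL (18), 0.227 for MC + Chemo against CTRL (19), 0.326 against Chemo (20), 0.326 against MC (20), 0.475 for the interaction (28), 0.871 for Lean against CTRL (16) and 0.246 for the 5-group test (31). Of the alternative values of 51 log2 fold changes, 1025 kept direction and side of the threshold, 1 passed it and 3 turned direction. The cause was not tested. Among members, the 51 held only values of Pdgfrb, Rgs5, Notch3 and Cspg4 in comparisons of MC + Chemo or the interaction. The others belonged to genes named for the lowest p of their list. These 51 therefore do not stand for all fold changes of the members. Ccn1 in Chemo against CTRL became 0.18 without CTRL 17, and 0.18 without CTRL 17 and MC + Chemo 52, and with each library left out it ran from −0.82 to 0.18. Des in MC + Chemo against MC became −0.087 without the 4 libraries high in muscle or adipocyte genes. Over the 70 fold changes of the 10 members in 7 comparisons, 32 turned direction when some single library was left out, 10 without the 4 libraries and 15 without CTRL 17 and MC + Chemo 52. Rgs5 in MC + Chemo against CTRL turned when CTRL 31 was left out and without the 4 libraries. The number of human namesakes and ligands called was 0 by edgeR. By DESeq2 it was 1 in Chemo against CTRL and 2 (FAP and TAGLN) in the 5-group test. Of all 18880 human genes, DESeq2 called 461 and 453 in these tests. With each library left out the number ran by edgeR from 0 to 3 in Chemo against CTRL. It ran from 0 to 1 in MC + Chemo against CTRL and from 0 to 1 in the 5-group test. The calls came without CTRL 31 or CTRL 70. The sets without 4 or 2 libraries were chosen after seeing the data. The number of members at an unadjusted p below 0.05 moved under 34 alternatives and kept within 1.5 times under 136. Depth did not limit detection of the members, whereas 4 to 6 tumors per group and the spread of Rgs5 and Notch3 limited the precision.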
